A study of Mus musculus with 10 samples.

Results

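Gpnmb, progranulin (Grn), the MiT transcription factors Mitf, Tfeb and Tfe3, the folliculin complex genes Flcn and Fnip1, the progranulin receptor Sort1 and the lysosomal membrane gene Tmem106b were examined in 4T1 sublines. These 9 genes were chosen by name with earlier results of the same arrays known, and every probe annotated to them was taken, 22 probes of the 45281 on the array. Gpnmb was shortlisted by the study as higher in brain-derived than in other sublines on these arrays, and Grn was chosen with its higher level in the same sublines known. The values of both are therefore given as a description, with no test. The study also took Gpnmb into RT-qPCR on the profiled sublines and on further, independently isolated brain-derived ones. There it reported Id2 and Aldh3a1 as consistently higher, and its text gives no such result for Gpnmb.

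4T1 is a mammary carcinoma line of BALB/c mice, here tagged with luciferase. Cells were grown as tumours in BALB/c mice, which are syngeneic and immune competent, and sublines were isolated from primary tumours (T, n = 3), lung metastases (L, n = 3) and brain metastases (B, n = 4). All sublines came from the same parental cells and, per the methods, were passaged in culture before RNA was extracted, so the arrays measured cultured cells and not tissue. The site of inoculation is described as subcutaneous in the methods and as orthotopic in the deposited design. Each subline was hybridised to 1 Illumina mouse whole-genome array, on which a probe gives a fluorescence intensity and a detection p-value.

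GPNMB is a transmembrane glycoprotein of melanosomes, lysosomes and the cell surface, and its gene is a known target of MITF in pigment cells and osteoclasts. It is expressed in a share of breast cancers, particularly triple-negative tumours. Progranulin is a secreted glycoprotein that also acts in lysosomes. Sortilin, encoded by Sort1, takes progranulin up from the cell surface, and prosaposin (Psap) provides another route to the lysosome, where progranulin is cut into granulins. TFEB, TFE3 and MITF bind E-box motifs in the promoters of lysosomal genes, the CLEAR network. When nutrients are present, folliculin with FNIP1 or FNIP2 acts on the RagC and RagD GTPases, which lets mTORC1 phosphorylate these factors and hold them in the cytoplasm. This control acts on the proteins, whereas the arrays measured only transcripts.

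The promoter sequences upstream of Gpnmb and Grn are shown because both genes were high in the B sublines, with a short stretch of Fnip1 because it was the member with a called difference. In each, E-box matches are in capitals and the sequence runs 5′ to 3′ on the plus strand of GRCm38.p6 (RefSeq). The Gpnmb stretch lies at chr6:49036268-49036517, the Grn stretch at chr11:102430257-102430506 and the Fnip1 stretch at chr11:54438092-54438121.
Gpnmb: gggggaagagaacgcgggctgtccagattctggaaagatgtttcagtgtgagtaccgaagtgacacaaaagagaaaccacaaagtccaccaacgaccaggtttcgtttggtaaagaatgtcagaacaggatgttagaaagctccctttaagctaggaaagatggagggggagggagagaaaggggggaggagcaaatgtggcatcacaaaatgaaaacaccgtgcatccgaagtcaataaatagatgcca
Grn: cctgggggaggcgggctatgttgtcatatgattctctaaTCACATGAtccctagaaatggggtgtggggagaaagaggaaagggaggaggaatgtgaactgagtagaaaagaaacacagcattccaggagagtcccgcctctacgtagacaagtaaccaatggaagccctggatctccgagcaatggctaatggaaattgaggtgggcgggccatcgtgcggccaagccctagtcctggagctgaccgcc
Fnip1: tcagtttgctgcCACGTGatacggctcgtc

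Promoter windows were found for 8 of the 9 genes, 13 windows in all, and the 250 bases upstream of each annotated start were searched on both strands. The letters CACGTG were found in 1 of the 13, the Fnip1 window, at bases -75 to -70 from the start of that window, and in 6.02% of all 32851 windows. The M-box-type letters TCATGTGA were found in 1 of the 13, the Grn window, as their reverse complement TCACATGA at bases -211 to -204, and in 0.846% of all windows. That match holds the shorter CATGTG, which was found in no other member window and in 12.3% of all windows. TCACGTGA was found in 0 of the 13 and in 0.785% of all windows. None of these letters stood in the Gpnmb window, which says nothing of sites elsewhere. A further annotated start of Fnip1, at position 54438107, falls within its CACGTG. A match is a run of letters and not a measured binding site.

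Detection required a detection p no higher than 0.01, which 14218 to 15563 probes per array met. The median intensity, before any correction, ranged from 68.81 to 85.95. Of 6 epithelial markers, 5 were detected in every group (Krt8, Krt18, Krt19, Cdh1 and Cldn4), and Epcam was not detected on any array. Cdh1 was lower in all 4 B sublines (10.23, 9.66, 8.32 and 10.13) than in every T and L subline (10.78 to 11.35). Subline B3 stood apart with the lowest Cldn4 (6.64 on the log2 scale, against 10.28 to 11.89 in the other B sublines). It also had the highest Pdgfra (11.45, against 9.18 to 9.43 in the other B sublines). Krt19 was lowest in B3 as well (6.29), whereas Krt8 (14.51) and Krt18 (13.67) were at their highest of all 10 arrays there. Values without B3 are given below. Because macrophages and pigment cells are known to express Gpnmb, markers of both were examined. All 12 pigment cell markers were undetected on every array. Of 17 macrophage and microglia markers with a probe, 14 were undetected on every array, among them Ptprc, Csf1r, Adgre1, Cx3cr1 and Trem2. The summed intensity of the 3 detected ones (Cd14, Lyz1 and Lyz2) was 212 to 562 in T, 691 to 853 in L and 126 to 334 in B, so it was not higher in the sublines with high Gpnmb. All marker sums here are of intensities after background correction and quantile normalization. Of 6 astrocyte markers, Aldoc and Gja1 were detected, while Gfap, Aqp4, Slc1a2 and Slc1a3 were not, and of 5 oligodendrocyte markers only Mbp was. The summed intensities were 10297 to 10933 in T, 9623 to 11735 in L and 11158 to 12071 in B for the astrocyte markers, and 260 to 276, 282 to 347 and 168 to 261 for Mbp. The astrocyte sum was mostly Gja1, and Aldoc by itself moved with the brain group, at 9.51 to 10.33 in B against 8.21 to 9.22 in T and L. The summed fibroblast markers moved with the brain group, with 122 to 229 in T, 341 to 588 in L and 651 to 2863 in B, led by Pdgfra, while Col1a1, Col1a2, Col3a1 and Lum were not detected. The part of these markers in the results below was not tested.

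Gpnmb was higher in all 4 B sublines than in every T and L subline on each of its 4 probes. Values here are log2 intensities after background correction and quantile normalization. On probe ILMN_2648669, detected on all 10 arrays, the T sublines T1 to T3 gave 9.11, 9.93 and 10.22 and the L sublines L1 to L3 gave 10.43, 9.68 and 10.15. The B sublines B1 to B4 gave 13.97, 12.63, 13.21 and 13.67. The lowest B value thus lay above the highest other value, and the T and L ranges overlapped. The B mean exceeded the T mean by 3.62 (SE 0.35, a fold of 12.3) and the L mean by 3.28 (SE 0.31, a fold of 9.74).

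On probe ILMN_2614655, which varied most over the arrays and represented the gene in the comparisons, the T sublines gave 5.43, 6.49 and 6.76 and the L sublines 6.003, 5.64 and 6.17. The B sublines gave 10.73, 8.93, 9.61 and 10.33. T1 and L2 were not detected on this probe, and the groups were separated as on the previous one. Here B exceeded T by 3.67 (SE 0.45) and L by 3.96 (SE 0.38). Without B3 these differences were 3.77 and 4.06.

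The remaining Gpnmb probes were detected in the B sublines alone. On ILMN_2918882 the B values were 9.43, 8.11, 8.46 and 8.82, which makes Gpnmb at least 7.22-fold higher than in T and at least 7.82-fold higher than in L. On ILMN_1236420 they were 7.69, 6.11, 6.69 and 7.13, at least 2.07-fold higher than in T and at least 2.24-fold higher than in L. These bounds set each undetected array at the dimmest probe detected on it, or at the probe's own value where that was higher. All 4 probes placed the B sublines in one order, B1, B4, B3 and B2 from high to low, and spanned 1.32 to 1.79 within the group.

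Between L and T the sign of the Gpnmb difference depended on the probe. It was -0.29 (SE 0.31) on ILMN_2614655 and 0.33 (SE 0.29) on ILMN_2648669, and the ranges of the 2 groups overlapped on both. On ILMN_2918882 and ILMN_1236420 the L values lay above the T values without overlap (5.33 to 5.71 against 4.76 to 5.05 on the former), but neither probe was detected on any L or T array. B thus stood above both other groups, and the order of L and T was not settled.

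Grn has 1 probe, ILMN_2595973, which was detected on all 10 arrays. The T sublines gave 10.86, 11.43 and 11.34, the L sublines 11.67, 11.55 and 11.70, and the B sublines 13.07, 12.90, 12.47 and 12.54. The 3 groups did not overlap, with T lowest and B highest. The B mean exceeded the T mean by 1.54 (SE 0.22, a fold of 2.90) and the L mean by 1.10 (SE 0.19, a fold of 2.15), and L exceeded T by 0.43 (SE 0.18). Without B3 the first 2 differences were 1.63 and 1.20. The order within B differed from that of Gpnmb, since B2 was second for Grn and last for Gpnmb.

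**Figure D1:**
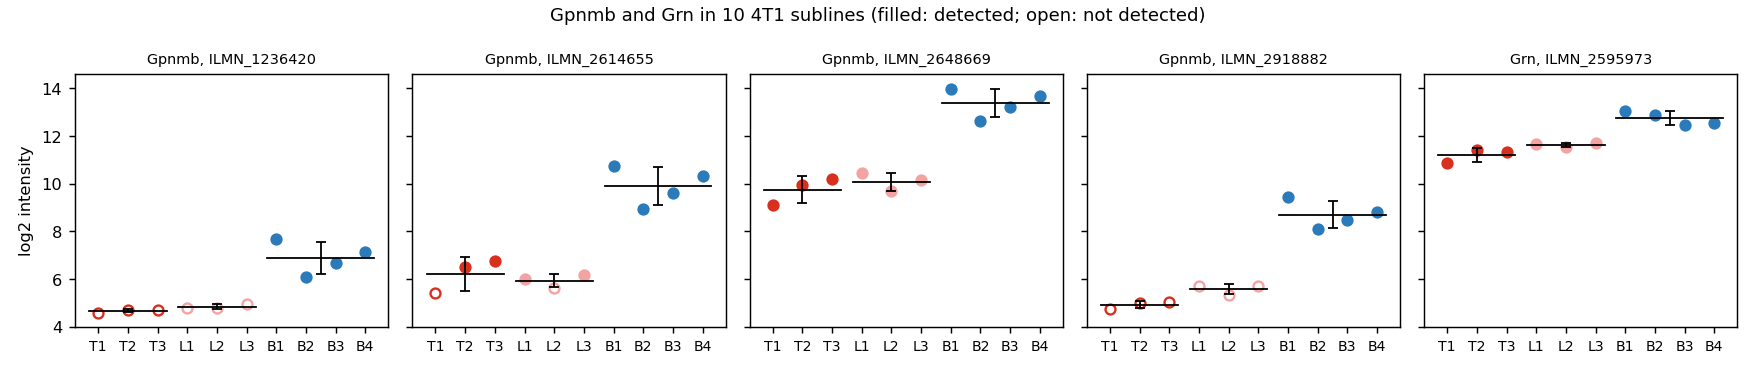
Log2 intensity (y axis) of the 4 Gpnmb probes and the Grn probe in each subline (x axis; T red, L pink, B blue), with the mean and SD of each group as a line and bar; filled points were detected and open points were not. On every probe the 4 B points lie above all T and L points, and B1 is the highest.

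The MiT factor transcripts were low or level across the groups. Mitf, the factor for which Gpnmb is best known as a target, was not detected on any array with either of its 2 probes, whose values stayed between 4.49 and 4.72. Tfeb was detected on 1 array, B3, at 5.75 on probe ILMN_1235592, while the other 9 arrays gave 4.58 to 5.19 on that probe. Its second probe was not detected on any array. Tfec, a further member of the family, was not detected on any array, with a lowest detection p of 0.332. Not detected means below the reach of these probes and not that the transcript is absent.

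Tfe3 was the member of the family that was detected on all 10 arrays. Its values were 7.99, 7.86 and 7.94 in T, 8.07, 7.81 and 8.38 in L and 8.33, 7.94, 7.99 and 8.19 in B. The groups overlapped in every comparison. By the moderated test of limma over all genes, B differed from T by 0.19 (95% confidence interval -0.18 to 0.55, adjusted p = 0.468) and from L by 0.03 (-0.39 to 0.45, adjusted p = 0.947). L differed from T by 0.16 (-0.23 to 0.55, adjusted p = 0.716). For Tfeb, which was at background on all T and L arrays and detected on B3 alone, no difference is given.

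Fnip1, which encodes the folliculin partner FNIP1, rose in B and was the sole member other than Gpnmb and Grn with a called difference, at a Benjamini-Hochberg adjusted p under 0.05. On probe ILMN_2725155 the T sublines gave 10.52, 10.64 and 10.70, the L sublines 10.56, 10.52 and 10.91, and the B sublines 11.31, 11.66, 11.41 and 11.22. All B values lay above all T and L values, with B2 highest. The difference from T was 0.78 (SE 0.17, a fold of 1.71, limma adjusted p = 0.0174) and that from L was 0.74 (SE 0.18, a fold of 1.67, limma adjusted p = 0.0372). L and T differed by 0.04 (95% confidence interval -0.32 to 0.40, adjusted p = 0.935).

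The call counts are read against all genes. Of the 6 tested members besides Gpnmb and Grn, 1 was called higher and 0 lower in B than in T, where 7.53% of 9352 genes were called higher and 6.91% lower. Likewise 1 of 6 was called higher than in L, where 3.83% of 9423 genes were called higher and 4.23% lower. In L against T, limma called 0 of the 5 tested members, with 0 at an unadjusted p under 0.05, and 0.379% of 8974 genes were higher and 0.0334% lower. Tfeb counts among the 6 through its detection on B3 alone. The random variance model gave the same numbers of called members at an adjusted p under 0.05, and 0 against T and 0 against L at the threshold of the methods, an unadjusted p under 0.001.

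The other detected Fnip1 probes gave differences of like size. ILMN_1240202 gave 8.32, 8.48 and 8.25 in T, 8.38, 8.37 and 8.37 in L, and 8.97, 9.35, 8.95 and 8.95 in B, a difference of 0.70 from T and 0.68 from L. ILMN_2854418 gave 9.73, 9.96 and 10.04 in T, 9.90, 10.09 and 9.92 in L, and 10.65, 11.16, 10.35 and 10.90 in B, a difference of 0.85 from T and 0.79 from L. With every detected probe tested in limma, all 3 passed against T (adjusted p = 0.0168 to 0.0301) and against L (adjusted p = 0.0343 to 0.0482). Of all detected probes, 6.69% were called higher in B than in T and 3.28% higher than in L. The probes share their samples and are not separate replicates, and ILMN_1248799 was not detected on any array.

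The Fnip1 call depended on which arrays were kept. Against T it was lost without T1, T2 or T3 (limma adjusted p = 0.0832, 0.0588 and 0.0575). Without any single B array it held against T (limma adjusted p = 0.0203 to 0.0398). Against L it was lost without L1, L2 or L3 (0.145, 0.156 and 0.0653) and without B1, B2 or B3 (0.0715, 0.0611 and 0.0514), all limma adjusted p-values. With the replicate number as a block, which drops B4, the difference from L was 0.80 (limma adjusted p = 0.0607). The difference stayed between 0.61 and 0.86 against L in all 18 alternatives.

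Flcn, which encodes folliculin, lay higher in B on both probes without passing the test. ILMN_1213483 gave 10.11, 10.02 and 9.84 in T, 9.86, 9.98 and 9.91 in L, and 10.42, 11.10, 10.53 and 10.16 in B, with every B value above all others. ILMN_1229936, which represented the gene, gave 6.33, 6.95 and 6.73 in T, 6.25, 6.66 and 5.86 in L, and 6.67, 7.74, 7.34 and 6.84 in B, with B and T overlapping. On this probe B differed from T by 0.47 (95% confidence interval -0.15 to 1.09, limma adjusted p = 0.269) and from L by 0.89 (0.24 to 1.53, adjusted p = 0.0885). L differed from T by -0.41 (-0.93 to 0.10, adjusted p = 0.438). B2 was the highest subline on both Flcn probes and on all 3 detected Fnip1 probes.

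Sort1, the receptor that clears progranulin from outside the cell, was detected on 6 arrays with ILMN_1219717 and on 7 with ILMN_3005873, while its other 2 probes were not detected on any. ILMN_1219717 gave 4.69, 5.87 and 5.26 in T, 5.09, 6.15 and 5.21 in L, and 6.14, 7.14, 7.38 and 5.89 in B. B2 and B3 were high, whereas B1 and B4 lay below L2, and B4 just above T2. Of the T and L arrays, only T2 and L2 were detected on this probe, so its differences rest partly on values at background. The difference from T was 1.37 (95% confidence interval 0.46 to 2.27, limma adjusted p = 0.0513) and that from L was 1.15 (0.26 to 2.05, adjusted p = 0.106). Without B4 the difference from T was 1.62 and passed (limma adjusted p = 0.0300), whereas without B3, the highest subline, it was 1.12 (limma adjusted p = 0.0776) and without T1 it was 1.07 (limma adjusted p = 0.186). Without B3 the difference from L was 0.90 (limma adjusted p = 0.154). The size depended on the processing, and with the processed values of the authors, where ILMN_3005873 represented the gene, the differences were 0.42 from T and 0.33 from L. With the replicate number as a block, which also drops B4, the difference from L was 1.40 and passed (limma adjusted p = 0.0404). ILMN_3005873 gave 5.22, 5.99 and 5.69 in T, 5.23, 6.60 and 5.97 in L, and 6.41, 7.31, 7.67 and 5.86 in B, with the same order within B. L and T differed by 0.21 on ILMN_1219717 (limma adjusted p = 0.815).

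Tmem106b, which encodes a lysosomal membrane protein linked in humans to progranulin-related dementia, differed little. ILMN_1231096 gave 6.56, 6.42 and 6.48 in T, 6.66, 6.45 and 6.93 in L, and 6.46, 7.01, 6.91 and 7.005 in B, and B1 lay within the T range. The difference was 0.36 from T (95% confidence interval -0.05 to 0.77, limma adjusted p = 0.204) and 0.17 from L (-0.28 to 0.61, adjusted p = 0.648). L differed from T by 0.20 (-0.17 to 0.56, adjusted p = 0.620). Its second probe was not detected on any array.

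**Figure D2:**
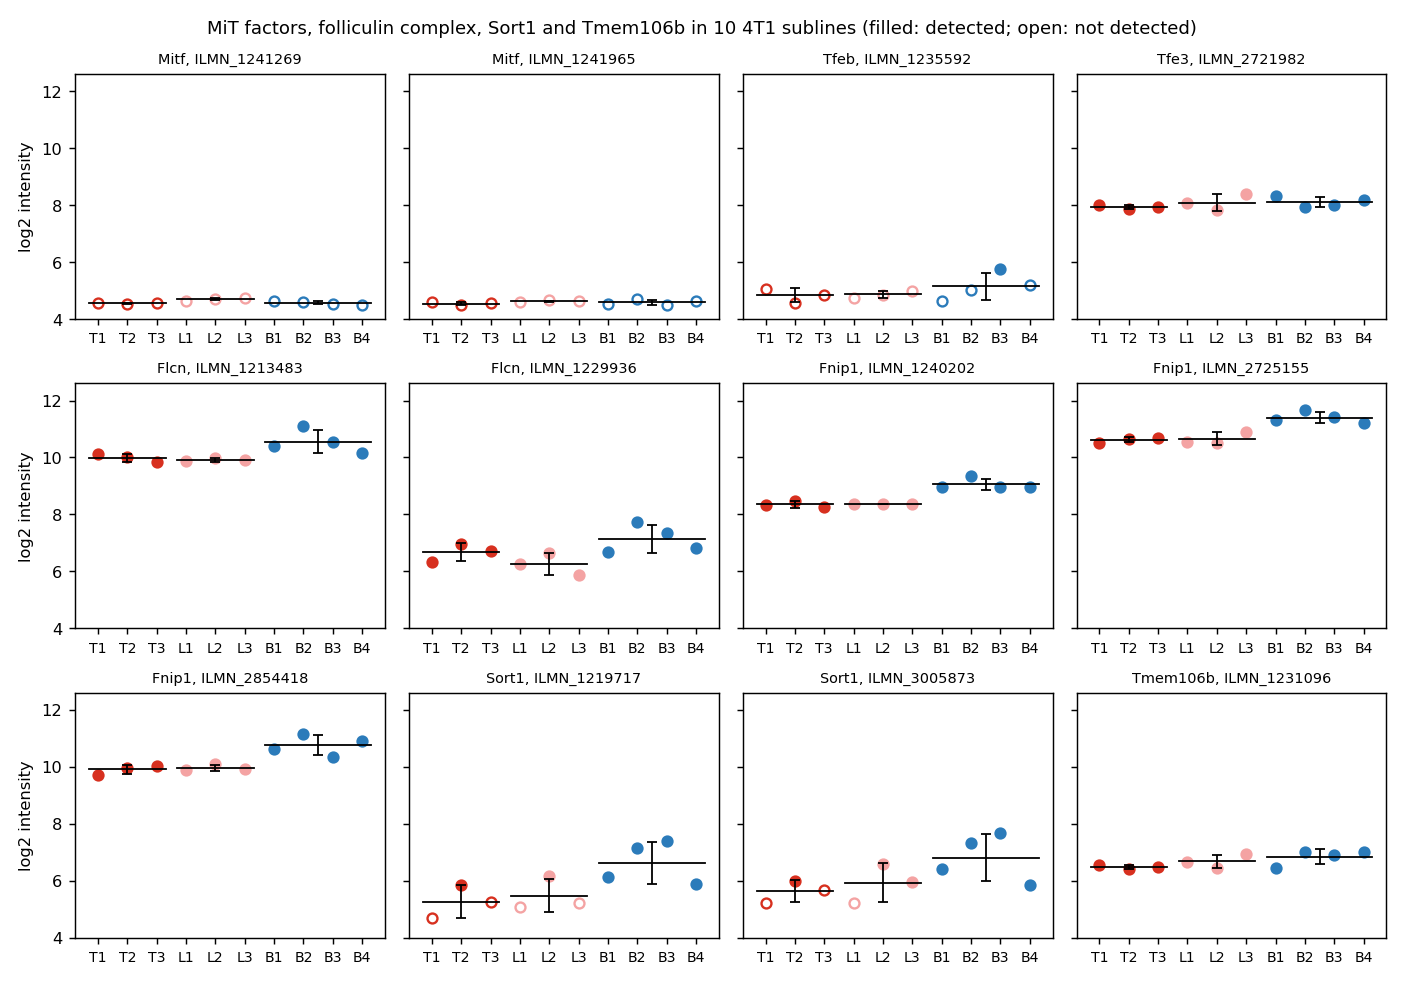
Log2 intensity (y axis) in each subline (x axis; T red, L pink, B blue) for the probes of the other 7 genes that were detected on at least 1 array, and for Mitf, with the mean and SD of each group; filled points were detected and open points were not. The 3 Fnip1 probes and the Flcn probe ILMN_1213483 have all B points above all T and L points, Tfe3 overlaps, and Mitf is open throughout.

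Of the 22 member probes, 15 were detected on at least 1 array, and on 9 of these all 4 B values lay above all T and L values. For Gpnmb and Grn this held on 5 of 5 detected probes, a count that the choice of these genes fixes. For the other members it held on 4 of 10, namely 3 probes of Fnip1 and 1 of the 2 detected probes of Flcn. Over all 14973 detected probes with a gene it held on 7.70%. Probes of 1 gene share their samples and do not count as separate members.

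**Figure D3:**
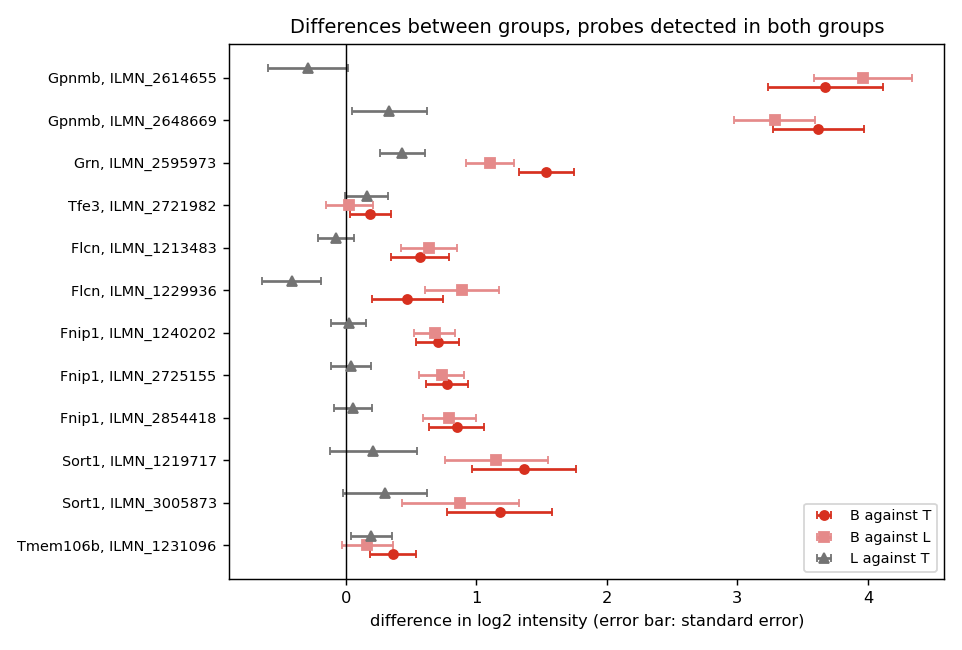
Difference in log2 intensity between groups (x axis) with its standard error for each member probe detected on at least 1 array of both groups (y axis), B against T as red circles, B against L as pink squares and L against T as grey triangles. Gpnmb probes lie furthest to the right for both B comparisons, and the L against T points lie between -0.41 and 0.43.

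Genes whose pattern over the 10 arrays was most like that of Gpnmb were P4hb (Pearson r = 0.98), Mxd4 (0.98), Uap1l1 (0.97), Asah1 (0.97) and Ckb (0.97), among 9486 detected genes. P4hb encodes protein disulfide isomerase, Asah1 the lysosomal acid ceramidase and Ckb the brain-type creatine kinase. For Grn they were Marcks (0.98), Igf2r (0.98), Ctns (0.98), Man2a2 (0.97) and Ypel5 (0.97). Igf2r encodes the receptor that carries mannose 6-phosphate-tagged enzymes to lysosomes, and Ctns the lysosomal cystine transporter. Among the members, r with Gpnmb was 0.91 for Grn, 0.86 for Fnip1, 0.64 for Sort1, 0.54 for Flcn, 0.43 for Tmem106b, 0.40 for Tfe3 and 0.33 for Tfeb. Tfeb was detected on 1 of the 10 arrays and the Sort1 probe on 6, so their values of r rest partly on background. All these values describe the arrays, which share the split between B and the other groups, and they were given no test.

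Some genes of the progranulin route, in a list that left out the 9 members, were called higher in B and none lower. This list and the CLEAR and Rag-Ragulator lists below were chosen with earlier results of the same arrays known. Against T, 9 of 21 tested genes rose and 0 fell, where 7.53% of all genes were called higher and 6.91% lower. The median difference was 0.55 beside -0.01 over all genes, and 0.41 with genes undetected in 1 group set at their bound. Adamts7, 1 of the 9, was not detected on any T array and entered the test through its detection in B. Its difference at the bound was 0.41. Of the 28 genes of the list, 26 had a probe. Slpi, which encodes an inhibitor of elastase that protects progranulin from cleavage, gave 7.90, 10.50 and 11.44 in T, 12.89, 12.86 and 12.22 in L, and 13.98, 13.09, 14.35 and 13.98 in B. The groups did not overlap, T1 being far below the rest. Slpi rose by 3.90 against T (SE 0.70, limma adjusted p = 0.00985) and by 1.20 against L (SE 0.30, limma adjusted p = 0.0413), and L exceeded T by 2.71 without passing (SE 0.70, limma adjusted p = 0.127).

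The next largest differences from T in that list were those of Sorl1, a sortilin-family receptor, with 1.37 (SE 0.17, limma adjusted p = 0.00264), and of Ctsl, a cathepsin that can cut progranulin, with 1.24 (SE 0.23, limma adjusted p = 0.0116). Ctsl gave 8.46, 7.88 and 8.35 in T, 8.17, 8.04 and 7.90 in L, and 9.55, 9.76, 8.97 and 9.61 in B. Psap, which encodes prosaposin, gave 11.64, 11.96 and 11.98 in T, 12.52, 12.01 and 12.30 in L, and 13.11, 12.79, 12.29 and 12.90 in B, and B3 lay within the L range. It rose against T by 0.91 (SE 0.22, limma adjusted p = 0.0248), whereas the difference from L was 0.50 (adjusted p = 0.195) and that of L from T was 0.41 (adjusted p = 0.328).

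Against L, 3.83% of all genes were called higher and 4.23% lower. In the list, 5 of 21 genes rose and 0 fell, with a median of 0.50. Besides Slpi these were led by Ctsl with 1.43 (SE 0.21, limma adjusted p = 0.00595) and Igf2r with 0.76 (SE 0.16, limma adjusted p = 0.0261). With the replicate number as a block, 2 of the list were called against L, and Slpi (limma adjusted p = 0.0993) and Igf2r (0.0621) were not. Over all genes the block called 664 of 9423, beside 760 without it. In L against T, limma called 0 of 21, where 0.379% of 8974 genes were called higher and 0.0334% lower. The random variance model also called 0. At an unadjusted p under 0.05 by limma, 5 were higher and 2 lower. No count over all genes is given at that threshold.

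CLEAR network genes, the lysosomal and autophagy genes known as TFEB and TFE3 targets, were taken as a list, also with earlier results known. In B against T, 14 of 37 tested genes rose and 0 fell, where 7.53% of all genes were called higher and 6.91% lower. The median difference was 0.46 (0.41 with undetected genes at their bound). The list held 48 genes, of which 43 had a probe. Ctsa, which encodes the protective protein cathepsin A, gave 7.23, 7.35 and 7.50 in T, 7.53, 7.37 and 7.31 in L, and 8.25, 9.01, 8.37 and 8.59 in B. It rose by 1.19 (SE 0.21, limma adjusted p = 0.00907). Sqstm1, the autophagy receptor p62, rose by 1.10 (SE 0.24, limma adjusted p = 0.0198) and Naglu, a heparan sulfate-degrading enzyme, by 1.09 (SE 0.19, limma adjusted p = 0.00904). Atp6v0d1, a proton pump subunit, and Mcoln1, the lysosomal calcium channel, were also among the 14.

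Against L, 7 of 37 CLEAR genes rose and 0 fell, where 3.83% of all genes were called higher and 4.23% lower. The median was 0.37 (0.30 at the bound). The largest differences were those of Ctsa with 1.15 (SE 0.20, limma adjusted p = 0.0132), Tpp1, a lysosomal peptidase, with 0.94 (SE 0.17, limma adjusted p = 0.0144), and Map1lc3b, an autophagosome marker, with 0.94 (SE 0.16, limma adjusted p = 0.0115). With the replicate number as a block the count against L was 3, and Tpp1 was not called (limma adjusted p = 0.0518). Over all genes that count was 664, beside 760 without the block. In L against T, limma called 0 of 36, where 0.379% of 8974 genes were called higher and 0.0334% lower. The random variance model also called 0. At an unadjusted p under 0.05 by limma, 3 were higher and 0 lower, with no count over all genes given. The CLEAR and progranulin lists share 3 tested genes, Ctsb, Ctsd and Psap. B against T and B against L share the B arrays.

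Folliculin acts through the Rag, Ragulator and mTORC1 machinery, and 31 of the 32 genes listed for it had a probe. Against T, 1 of 26 rose and 1 fell, where 7.53% of all genes were called higher and 6.91% lower. The median was 0.09 (0.01 at the bound). At an unadjusted p under 0.05 by limma, 6 were higher and 4 lower than in T. No count over all genes is given at that threshold, so nothing is read from it about the list. The count of calls depended on the setting. It was 7 with no background correction, 8 with the processed values of the authors and 8 with all 10 arrays in 1 model. Calls over all genes were then 1683, 1630 and 2022, beside 1350 in the main setting. Sesn1, a sestrin that restrains mTORC1, rose by 0.86 (SE 0.21, limma adjusted p = 0.0272), and Mtor, the kinase itself, fell by 0.66 (SE 0.19, limma adjusted p = 0.0445). Against L, 0 of 27 rose and 2 fell by limma, where 3.83% of all genes were called higher and 4.23% lower. At an unadjusted p under 0.05 by limma, 6 were higher and 4 lower, again with no count over all genes. The random variance model also called 2. The 2 were Castor1, an arginine sensor that restrains mTORC1, which fell by 1.12 (SE 0.20, limma adjusted p = 0.0141), and Mtor, which fell by 0.60 (SE 0.15, limma adjusted p = 0.0417). With the replicate number as a block Mtor was not called against L (limma adjusted p = 0.0646). In L against T, limma called 0 of 26, where 0.379% of 8974 genes were called higher and 0.0334% lower. The random variance model also called 0. At an unadjusted p under 0.05 by limma, 2 were higher and 0 lower, with no count over all genes given.

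**Figure D4:**
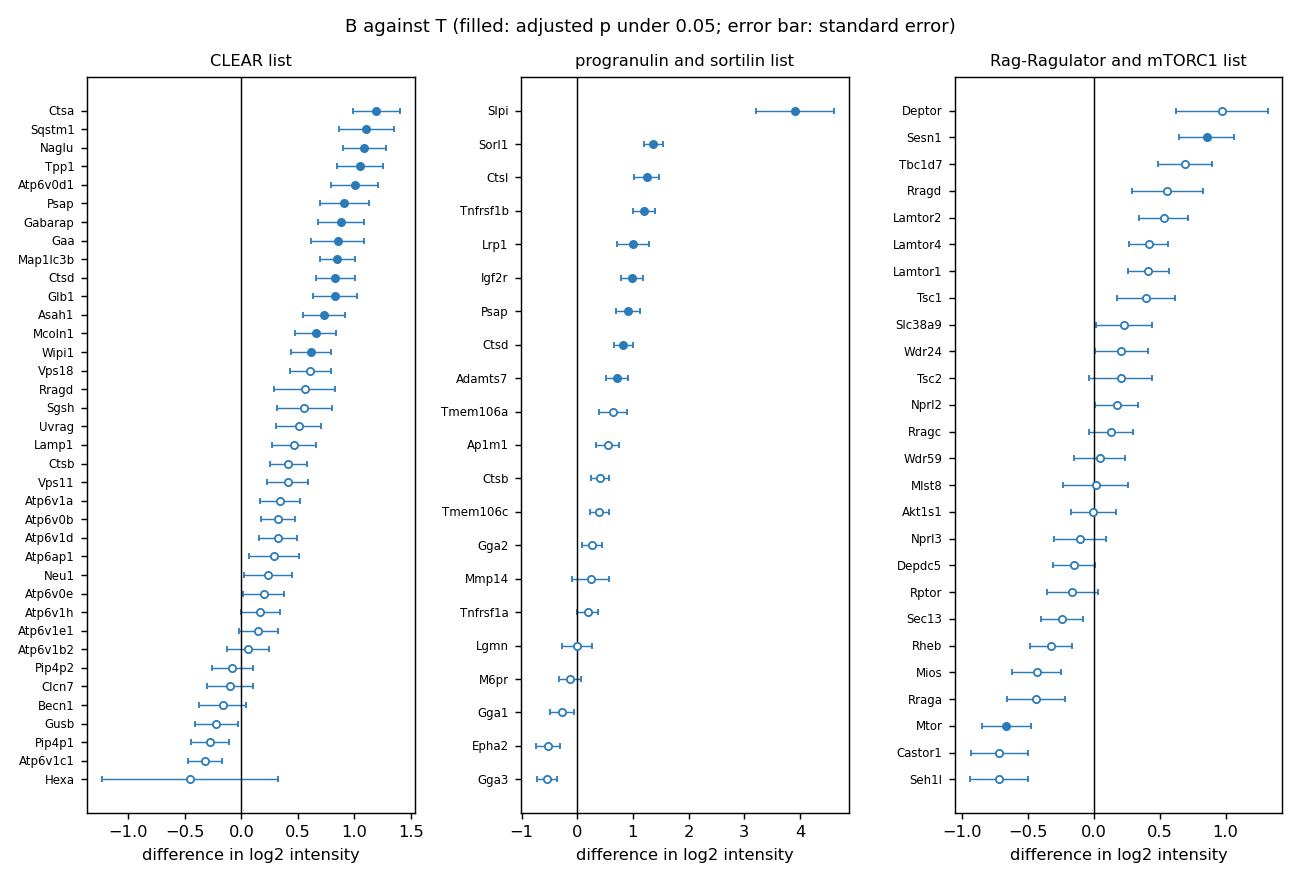
Difference in log2 intensity of B against T (x axis) with its standard error for each tested gene (y axis) of the CLEAR list, the progranulin and sortilin list and the Rag-Ragulator and mTORC1 list; filled points passed at an adjusted p under 0.05. All filled points of the first 2 lists are above 0 (14 and 9 genes), and the third has 1 on each side. Adamts7, 1 of the 9, was not detected on any T array. The lists were chosen with earlier results of these arrays known.

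Without B3, 11 CLEAR genes and 9 of the progranulin list were called against T, and 6 and 5 against L. The counts fell further when 1 of the smaller groups lost an array. Against T, CLEAR calls numbered 2, 7 and 3 without T1, T2 and T3, and against L they numbered 1, 0 and 0 without L1, L2 and L3. The corresponding counts for the progranulin list were 4, 5 and 4 against T and 1 each against L. Calls over all genes fell as well. Against T they went from 1350 to 330, 571 and 445 without T1, T2 and T3. Against L they went from 760 to 171, 130 and 232 without L1, L2 and L3.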

How the data were processed

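RNA of 10 4T1 sublines (T, n = 3; L, n = 3; B, n = 4) was measured on Illumina MouseWG-6 v2.0 arrays, 1 array each. The sources describe the sublines as independently isolated, and the number of arrays limits the precision. Per the file headers, the deposited intensities are mean bead intensities per probe from GenomeStudio, not normalized and with background in them, and the detection p-value of each probe was deposited with them. For the processed table the authors removed undetected probes, applied a variance-stabilising transformation and robust spline normalisation with lumi (version not given in the sources used here), and the values they deposited are nearly log2. That table was used as an alternative.

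The intensities were background-corrected by detection p-value and quantile-normalised with neqc of limma 3.58.1 (R 4.3.3, offset 16). Of 45281 probes, 34885 had 1 gene symbol, 18 had several and 10378 had none listed, and the last 2 kinds were left out. A gene was tested if a probe was detected (p of 0.01 or less) on at least 1 array of the 2 groups, with the probe of largest interquartile range over all arrays. Pairs of groups were compared with the two-sided moderated test of limma on their arrays alone, with Benjamini-Hochberg adjustment over all genes and calls under 0.05. The test was tried on simulated data first.

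The labels give no pairing. Deviations from the group means correlated at 0.14 to 0.21 in all 3 pairs of B and L arrays with the same number, and at -0.11 to 0.06 in the 9 pairs with different numbers. B and L were therefore also fitted with the number as a block, which leaves out B4, and its values stand beside results that it changes.

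The members and lists were chosen with earlier results of these data known. The genes named are all members, up to 3 called genes per list, comparison and direction with the largest difference, the 5 genes most correlated with Gpnmb and with Grn, and Slpi, Psap and Tfec. Atp6v0d1, Mcoln1, Adamts7 and Tnfrsf1b were named after their values were seen. Alternatives covered background correction, offset, scaling, the dim-probe filter, the probe choice, a model of all 10 arrays, the random variance model of the methods, the block and leaving out each array. The slide of each array is not given in the sources used here. Protein sequences were not used here.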

Additional observations from a re-analysis of the deposited data

Results flagged for a closer look

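On the Fnip1 probe ILMN_1240202, subline B2 (9.35 on the log2 scale) lay apart from the other B sublines, the nearest of which was 8.97. Its gap to that value was 0.963 of the range of the group, more than Dixon's test allows at 95% for a group of 4. The B group was examined in this way on 15 detected member probes, and chance marks about 1 group in 20. On the probe that represents Fnip1, ILMN_2725155, B2 was also the highest (11.66), and without B2 the difference from T was 0.69 (limma adjusted p = 0.0286).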

How the results depend on the processing

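Gpnmb and Grn kept a positive B against T and B against L difference in all alternatives. Gpnmb in B against L was 3.20 to 3.28 where ILMN_2648669 became its probe (no background correction, offset 50, the processed values of the authors, the probe with the highest mean), and its L against T difference was then 0.28 to 0.33. Against T, calls fell to 543 genes from 1350, 0 members, 0 Rag-Ragulator and 6 CLEAR genes with the random variance model at an unadjusted p under 0.001. With the replicate block they were 703 genes, 1 Rag-Ragulator, 3 progranulin-list and 3 CLEAR genes. T shares only a number with B and L (correlations of -0.12 to 0.04 with B and -0.10 to 0.09 with L). The model of all 10 arrays called 2 members and 8 Rag-Ragulator genes. Rag-Ragulator calls were 7 with no background correction, 4 with offset 50 and 8 with the processed values, and CLEAR calls were 9 with median scaling. Median scaling and the replicate block each exchanged the call of Fnip1 (adjusted p = 0.0546 and 0.0538) for that of Sort1 (0.0316 and 0.0208).

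Against L, the model of all 10 arrays called 1146 genes (760 in the main setting), 4 Rag-Ragulator and 8 progranulin-list genes. The random variance model at an unadjusted p under 0.001 called 368 genes, 0 members, 1 Rag-Ragulator and 1 progranulin-list gene. Median scaling called 522 genes, 0 members (Fnip1 adjusted p = 0.104), 1 Rag-Ragulator, 1 progranulin-list and 3 CLEAR genes. Rag-Ragulator calls were 4 with no background correction, and progranulin-list calls were 3 with the highest-mean probe. The replicate block called 664 genes, 2 of the progranulin list and 3 CLEAR genes.

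In L against T, 37 genes became 173 with no background correction, 155 with offset 50, 204 with median scaling, 113 with the random variance model at an unadjusted p under 0.001, 9 with the replicate block, and 0 with no dim-probe filter or all 10 arrays in 1 model. Progranulin-list calls were 1, 1 and 2 under the first 3 of these. Leaving out 1 array gave 330 to 1410 genes, 0 to 2 members, 0 to 4 Rag-Ragulator, 4 to 9 progranulin-list and 2 to 12 CLEAR genes against T. It gave 130 to 839, 0 to 1, 0 to 3, 1 to 6 and 0 to 7 against L, and 0 to 124 genes in L against T, where members and lists stayed at 0. Ctsa, Naglu, Slpi, Sorl1 and Tnfrsf1b against T and Ctsl against L were called in every setting. The cause of these changes was not tested. Undetected probes give only bounds.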
